A study of Mus musculus with 10 samples.

Results

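The genes described here encode the serine/arginine-rich (SR) splicing factors, the heterogeneous nuclear ribonucleoproteins (hnRNPs), the RBM family of RNA-binding motif proteins, the CLK kinases that phosphorylate SR proteins, and the cold-inducible RNA-binding protein Cirbp, in mouse liver. They were chosen by symbol alone (Srsf, Hnrnp or Rbm followed by the usual letters and numbers, Clk1 to Clk4, and Cirbp), which gave 75 of the 17359 genes in the deposited table. Of these, 11 were SR genes, 4 were CLK kinases, 20 were hnRNPs, 2 were the cold-inducible pair Cirbp and Rbm3, and 38 were other RBM genes. The study fed all mice a high-fat diet and put part of them on a weekly cycle of calorie restriction, in which intake was reduced by 50% on day 1, by 70% on days 2 and 3 and by 50% again on day 4, before free feeding from day 5 to day 7. Liver RNA was compared between ad libitum controls on the same diet (n = 3), mice at day 3 of the cycle (restricted, n = 4) and mice at day 7 (refed, n = 3). No strain, transgene or drug is named in the labels, and the sources used here do not give the sex, age, time of day or body temperature at collection. Nothing in the labels says that each sample of a group is its own animal, so p-values reflect only how these samples vary, which may be technical.

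SR proteins bind exonic enhancer sequences of pre-mRNA through RNA recognition motifs and recruit the splicing machinery through their arginine- and serine-rich tails, whose phosphorylation by the CLK and SRPK kinases sets their location and activity. The hnRNPs coat nascent transcripts and often act against SR proteins at splice sites, while RBM proteins have mixed roles in splicing, RNA decay and editing. Cirbp and Rbm3 are small glycine-rich RNA-binding proteins known for their induction by mild cold, and their mRNAs are known to follow the daily rhythm of body temperature in mouse liver. Many transcripts of SR, hnRNP and CLK genes carry poison exons or detained introns, which let these proteins regulate their own mRNAs. The tables used here hold 1 value per gene and do not separate such isoforms.

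Levels are given as CPM, a gene's deposited expected count relative to its library's total, corrected for composition by TMM scaling, which takes the bulk of genes as unchanged. A gene was called higher or lower where edgeR's quasi-likelihood test gave an adjusted p below 0.05 over all 12789 genes tested, and 69 of the 75 members were among those. The 6 members not tested, Srsf12, Rbm11, Rbm24, Rbm31y, Rbm44 and Rbm46, were at 0.502 CPM or less in every library. Library totals were 13871533 to 15899479 counts. On the first principal component the restricted libraries lay apart from the other 6, at 27.1 to 44.5 against −37.5 to −11.1 in the ad libitum and −25.1 to −16.1 in the refed libraries. Ad libitum replicate 2 was the control nearest to the restricted libraries, and it was the highest control for 38 of the 69 tested members, for 7 of 10 SR genes and for all 4 CLK genes.

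Between ad libitum feeding and restricted day 3, 21 of the 69 tested members rose, 8 fell, none of which was called lower with libraries scaled to their totals alone, and 40 did not pass the test. Over all genes tested 31.5% were called, 16% higher and 15.6% lower, so the members' share of 42% was above that of the whole table and leaned to the higher side. The median log2 fold change was 0.15 over the members and 0.05 over all genes. The rise was most uniform in the CLK kinases and the cold-inducible pair, where all 6 genes were called higher, while the hnRNPs split evenly into 4 higher and 4 lower. At refed day 7 no member was called against ad libitum by edgeR (0.0547% of all genes were called, 0.0156% higher and 0.0391% lower). At an unadjusted p below 0.05 the count was 3 of 69 members (Rbm3, Srsf5 and Rbm42) and 1381 of all 12789 genes, a smaller share of the members than of the whole table. DESeq2 and limma voom each called 1 member, Rbm3, against 0.85% and 0.391% of all genes. Between restricted day 3 and refed day 7, 6 members were higher and 15 lower at day 7, against 22.1% of all genes called, 11.4% higher and 10.7% lower.

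The comparisons share samples, so their calls are not independent of each other. Without regard to the test, the restricted and ad libitum libraries did not overlap for 29 of 69 members, 18 higher and 11 lower, and for 35.8% of all genes. The refed and ad libitum libraries did not overlap for 12 members, 8 higher and 4 lower, and for 18.9% of all genes. The refed and restricted libraries did not overlap for 31 members, 12 higher and 19 lower at day 7, and for 34.1% of all genes. With libraries scaled to their totals alone, the median of all genes at restricted day 3 was 0.31 higher on the log2 scale than with TMM scaling. Then 35 members passed as higher and 0 as lower, against 39.7% of all genes called. The falls described here are therefore falls relative to the bulk of the transcriptome. Leaving out ad libitum replicate 3 gave 12 higher and 1 lower of 69, against 16.2% of all genes called. Leaving out ad libitum replicate 4 gave 14 and 5, against 19.7% of all genes. Counting only partner genes of the deposited table, 14 members overlap a gene of the other strand in the annotation and 4 a gene of the same strand. Overlaps with annotated genes absent from that table were not counted. The reads of any such overlap cannot be assigned in non-stranded libraries. For the called members Clk3, Hnrnpab, Hnrnpf and Rbm10 the partner gene was not called, at log2 fold changes of 0.18 (Edc3), 0.06 (Phykpl), −0.11 (4933440N22Rik) and −0.08 (Ndufb11).

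**Figure D1:**
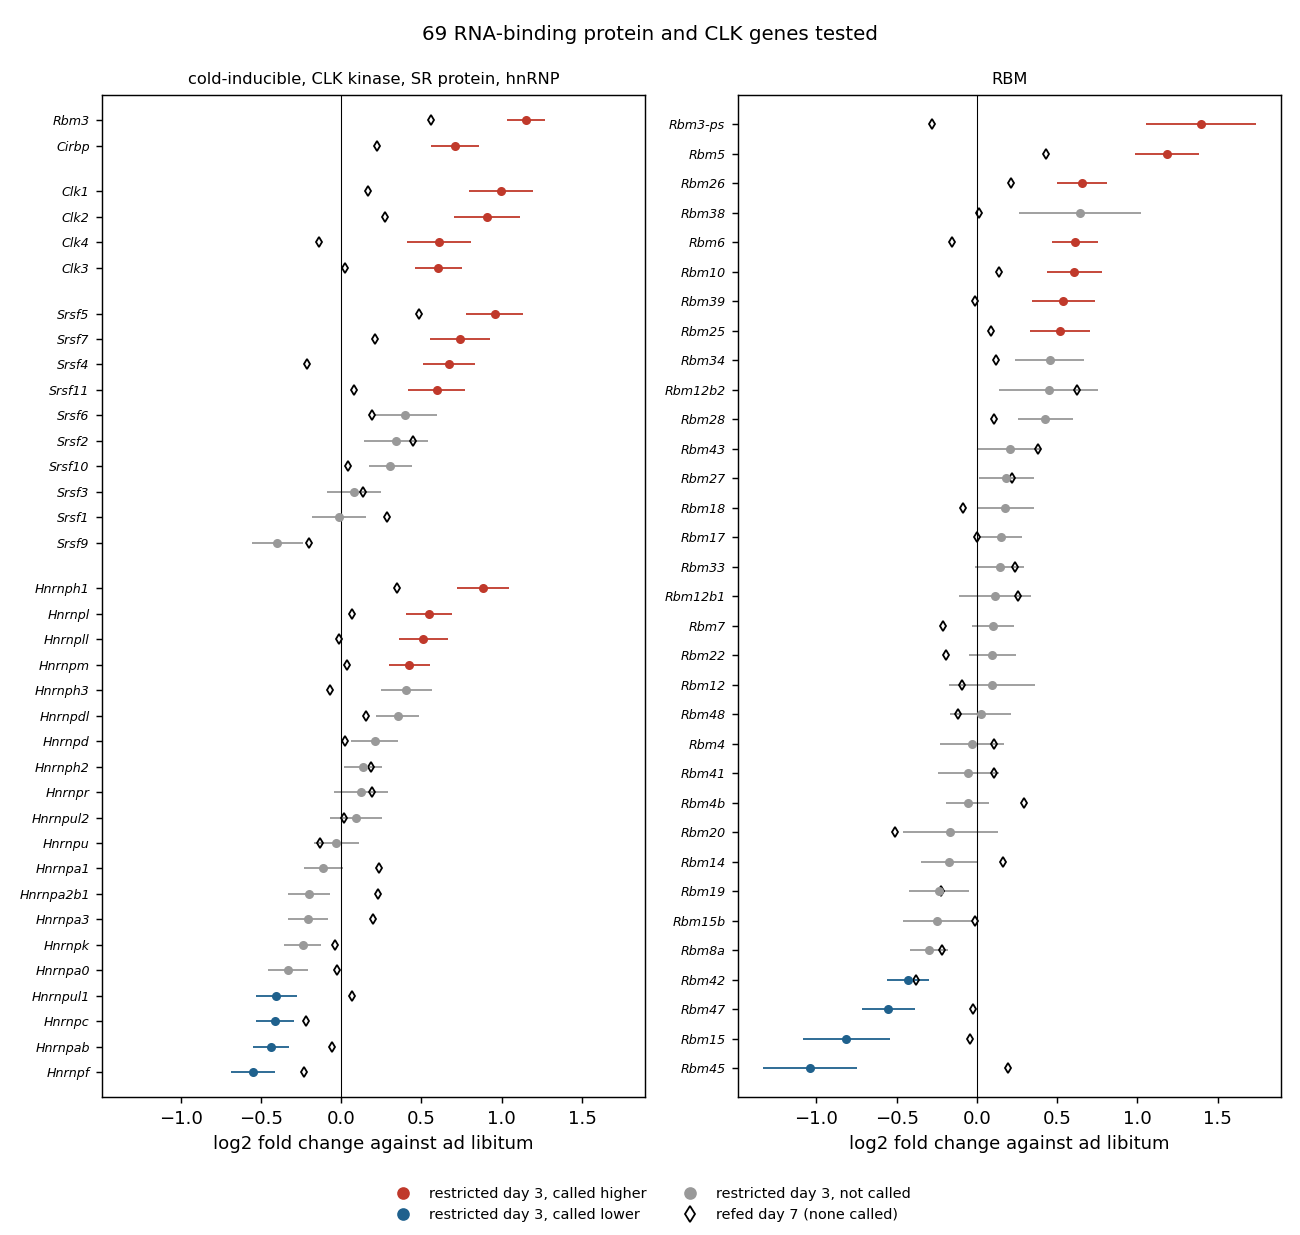
Log2 fold changes of the 69 tested members against ad libitum, with circles and bars for restricted day 3 (estimate ± SE, n = 4 against 3) and open diamonds for refed day 7 (n = 3 against 3), grouped by family. The 21 members called higher at day 3 lie at 0.43 to 1.40 and the 8 called lower at −1.04 to −0.40, and most diamonds lie nearer to 0.

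Promoter sequence is shown for 3 members because a short element described in the mouse Cirbp gene as responsive to mild cold, the MCRE with the letters TCCCCGCC, is present before a start of each, and the 3 did not all move the same way. RefSeq windows of 250 bases before the annotated start (build GRCm38.p6) were found for 63 of the 75 members. Rbm3 and Clk1 were among those without a window, so neither was searched for any element. The element, read on both strands, was present in 5 of these 63 genes (7.94%) and in 5.37% of all 27025 genes with a window. The 5 were Cirbp and Srsf7, both called higher at restricted day 3, Hnrnpf, called lower, and Hnrnpa0 and Rbm19, which did not pass. The windows are Cirbp at chr10:80167589-80167838 on the plus strand, Srsf7 at chr17:80207306-80207555 on the minus strand and the one of 4 Hnrnpf windows with the element, chr6:117917044-117917293 on the plus strand. The other Cirbp window, chr10:80167921-80168170 on the plus strand, does not hold the element. Capitals mark the MCRE, the GC box (GGGCGG), the CCAAT box (CCAAT) and the cyclic AMP response element (TGACGTCA) on either strand.
Cirbp: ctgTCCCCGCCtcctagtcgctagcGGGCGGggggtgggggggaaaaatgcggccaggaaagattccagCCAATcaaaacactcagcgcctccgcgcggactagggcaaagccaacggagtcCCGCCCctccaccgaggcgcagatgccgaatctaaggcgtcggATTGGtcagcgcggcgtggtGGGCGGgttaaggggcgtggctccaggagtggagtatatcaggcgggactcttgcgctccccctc
Srsf7: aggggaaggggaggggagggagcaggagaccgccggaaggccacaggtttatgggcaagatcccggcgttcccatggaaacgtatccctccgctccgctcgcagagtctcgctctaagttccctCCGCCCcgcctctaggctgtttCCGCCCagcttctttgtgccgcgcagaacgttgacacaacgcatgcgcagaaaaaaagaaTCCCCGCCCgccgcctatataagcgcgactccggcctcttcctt
Hnrnpf: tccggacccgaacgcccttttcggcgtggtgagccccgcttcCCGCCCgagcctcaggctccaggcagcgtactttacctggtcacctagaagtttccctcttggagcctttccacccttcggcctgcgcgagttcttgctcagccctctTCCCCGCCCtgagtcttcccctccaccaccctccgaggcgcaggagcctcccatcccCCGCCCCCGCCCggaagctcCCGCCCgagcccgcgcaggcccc
The MCRE begins at base 4 of the Cirbp window, at base 207 of the Srsf7 window and at base 151 of the Hnrnpf window, and in Srsf7 and Hnrnpf it overlaps a GC box. A GC box was present in 61.9% of member genes and 35.4% of all genes, and a CCAAT box in 49.2% and 37.5%. The cyclic AMP response element was found in 1 member, Clk4 (1.59% of members and 1.77% of all genes). The inverted cores of the heat shock element were found at shares of 7.94% and 7.73% (GAANNTTC) and 4.76% and 8.11% (TTCNNGAA). A match describes the letters of the window and is no evidence of binding.

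Cirbp and Rbm3 were both higher at restricted day 3, and Rbm3 showed the largest fold of any abundant member apart from Rbm5. Rbm3 was at 47.6, 45.8 and 44.6 CPM in the ad libitum libraries, 107, 109.5, 90.5 and 101 CPM at restricted day 3 and 61.9, 69.6 and 71.9 CPM at refed day 7. The restricted libraries were about 2.22 times as high as the controls (log2 fold change 1.15, SE 0.12, adjusted p = 0.00014). The refed libraries lay between the other groups without overlapping either. They were below restricted day 3 (log2 fold change −0.59, SE 0.12, adjusted p = 0.0041). Against ad libitum the refed value was not called by edgeR (log2 fold change 0.56, SE 0.12, adjusted p = 0.147), and it was called by DESeq2 (adjusted p = 0.012) and limma voom (0.033).

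Cirbp was at 13.3, 14.0 and 11.6 CPM in the ad libitum libraries, 17.3, 25.1, 22.9 and 19.3 CPM at restricted day 3 and 15.6, 15.0 and 14.7 CPM at refed day 7. Every restricted library was above every other library, a 1.63-fold difference from ad libitum (log2 fold change 0.71, SE 0.15, adjusted p = 0.0037). The refed libraries were lower than the restricted ones (log2 fold change −0.49, SE 0.15, adjusted p = 0.031) and lay just above the controls (log2 fold change 0.22, SE 0.16, adjusted p = 0.64). That refed fall of Cirbp was not called without restricted replicate 2 or 3 or any refed replicate (adjusted p = 0.065 to 0.096). Summed over both genes, the cold-inducible pair took 56.1 to 60.9 CPM in the controls, 113 to 135 CPM at day 3 and 77.5 to 86.6 CPM at day 7. The pseudogene Rbm3-ps, whose reads may be shared with Rbm3, moved with it at a far lower level. It was at 0.742, 0.390 and 0.759 CPM in the controls, 1.32, 1.97, 1.51 and 1.95 CPM at day 3 and 0.498, 0.599 and 0.468 CPM at day 7 and was called higher at day 3 (log2 fold change 1.40, adjusted p = 0.0082). It was picked out after its values were seen.

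**Figure D2:**
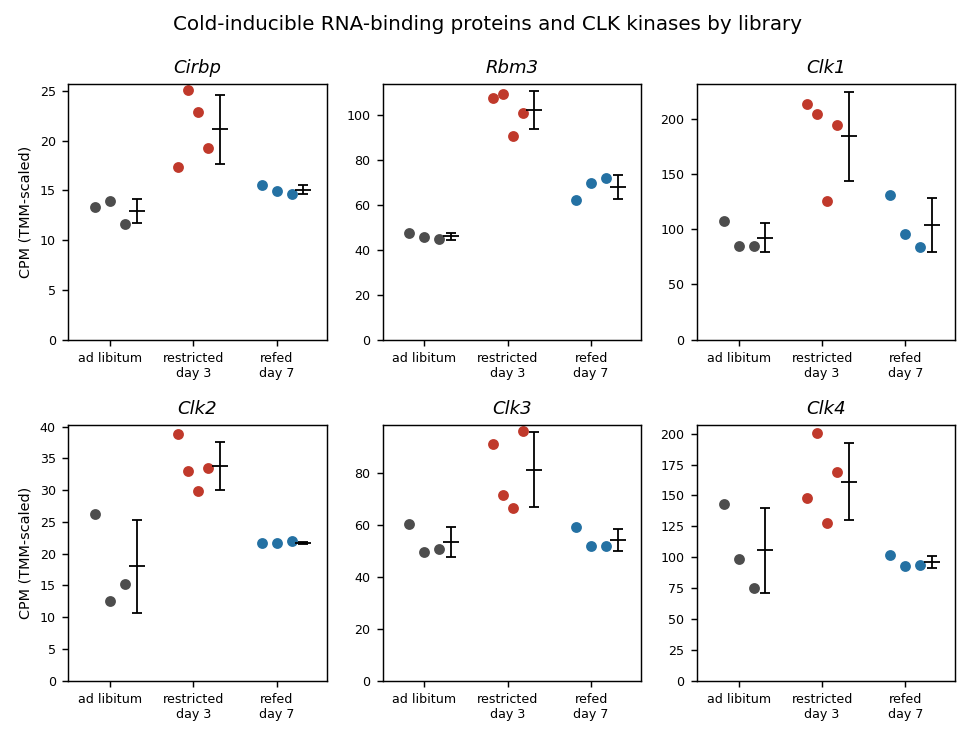
CPM of Cirbp, Rbm3 and the 4 CLK kinase genes in each library (points), with the mean and SD of each group beside them (n = 3, 4 and 3). For Cirbp and Rbm3 the restricted libraries stand above all others, at 17.3 to 25.1 and 90.5 to 109.5 CPM, and for Clk4 they overlap the controls through ad libitum replicate 2 at 143 CPM.

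All 4 CLK kinase genes rose at restricted day 3 and all 4 were lower again at refed day 7. Clk1, whose own pre-mRNA is known to be held back by detained introns, rose most. Clk1 was at 107, 85.1 and 84.9 CPM in the ad libitum libraries, 214, 205, 125 and 194 CPM at restricted day 3 and 131, 95.9 and 84.4 CPM at refed day 7. The restricted libraries were 2.00 times as high as the controls (log2 fold change 1.00, SE 0.20, adjusted p = 0.0029), and restricted replicate 3 was the lowest of the 4 for this gene and for the other 3 kinases too. Clk2 was at 26.3, 12.6 and 15.2 CPM in the ad libitum libraries, 38.9, 33.1, 29.9 and 33.5 CPM at restricted day 3 and 21.7, 21.6 and 21.9 CPM at refed day 7, with no overlap between restricted libraries and the rest (log2 fold change 0.91, SE 0.20, adjusted p = 0.0054). Ad libitum replicate 2 stood above the other controls and above the refed libraries.

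Clk3 was at 60.1, 49.5 and 50.5 CPM in the ad libitum libraries, 90.9, 71.4, 66.3 and 95.9 CPM at restricted day 3 and 59.1, 51.6 and 51.8 CPM at refed day 7. Its groups at day 3 and in the controls did not overlap (log2 fold change 0.60, SE 0.15, adjusted p = 0.0081). Clk4 was at 143, 98.9 and 75.3 CPM in the ad libitum libraries, 148, 201, 127 and 169 CPM at restricted day 3 and 102, 92.8 and 93.6 CPM at refed day 7. Here ad libitum replicate 2 lay inside the restricted range, and the call (log2 fold change 0.61, SE 0.20, adjusted p = 0.034) was lost without ad libitum replicate 3 or 4 or restricted replicate 2 or 4, and with the refed libraries left out of the fit (adjusted p = 0.059 to 0.15). Clk4 overlaps BC049762 on the other strand, which was at a log2 fold change of 1.34 (adjusted p = 0.054).

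From restricted day 3 to refed day 7 the kinases fell by 0.58 to 0.83 on the log2 scale, with adjusted p = 0.011 for Clk1, 0.037 for Clk2, 0.014 for Clk3 and 0.019 for Clk4. Clk1 overlapped between these groups through refed replicate 1, and the other 3 did not. Without refed replicate 2 none of these 4 calls was left (adjusted p = 0.052 to 0.11), and none without refed replicate 3, and Clk2 also lost its call without restricted replicate 1, 2 or 4 or refed replicate 1. Against ad libitum the refed libraries overlapped the controls for each kinase, with log2 fold changes of −0.14 to 0.27. The summed level of the 4 kinases was 226 to 337 CPM in the controls, 349 to 510 CPM at day 3 and 252 to 314 CPM at day 7.

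Of the 10 SR genes tested, Srsf4, Srsf5, Srsf7 and Srsf11 rose at restricted day 3, none fell and 6 did not pass. The share called was 40%, against 31.5% of all genes (16% higher and 15.6% lower). The median log2 fold change of the 10 SR genes was 0.37, and it was 0.59 without ad libitum replicate 2 and 0.24 without ad libitum replicate 4. Srsf5, first described as a gene induced in regenerating rat liver, had the highest mean level per length of all members in each group, although Hnrnpa2b1 was higher in 2 of the 3 control libraries. Its mean was 118 ± 4.40 FPKM in the controls (SD, n = 3) and 284 ± 53.6 FPKM at day 3 (n = 4), where FPKM is the deposited value per length and depth. Srsf5 was at 155, 191 and 166 CPM in the ad libitum libraries, 410.4, 294, 293 and 327 CPM at restricted day 3 and 308, 208 and 201 CPM at refed day 7. The restricted libraries were 1.94 times as high as the controls (log2 fold change 0.96, SE 0.18, adjusted p = 0.0019). All 3 refed libraries still lay above all 3 controls, and refed replicate 1 lay within the restricted range (log2 fold change 0.49, SE 0.19, adjusted p = 0.376 against ad libitum).

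Srsf4 was at 128, 106 and 93.4 CPM in the ad libitum libraries, 166, 222, 149.9 and 157 CPM at restricted day 3 and 82.5, 97.9 and 102 CPM at refed day 7. This long-tailed SR protein gene rose at day 3 (log2 fold change 0.67, SE 0.16, adjusted p = 0.0077) and was lower at day 7 than at day 3 (log2 fold change −0.89, SE 0.16, adjusted p = 0.0031). It was the 1 SR gene called in that comparison by edgeR with TMM scaling. DESeq2 also called Srsf7 and Srsf11 lower there (adjusted p = 0.045 and 0.029), and library totals alone called 5 SR genes lower, with Srsf5 and Srsf10 added to these. No restricted library overlapped any other, and both calls were kept under all 21 alternatives run. Srsf7, which encodes the SR protein with a zinc knuckle, was at 45.2, 33.2 and 34.6 CPM in the ad libitum libraries, 84.2, 49.2, 62.3 and 56.4 CPM at restricted day 3 and 52.6, 37.3 and 41.1 CPM at refed day 7. Refed replicate 1 lay above restricted replicate 2, and the rise over the controls (log2 fold change 0.74, SE 0.19, adjusted p = 0.01) was not called without ad libitum replicate 3 (adjusted p = 0.060). Srsf11 was at 258, 179 and 159.7 CPM in the ad libitum libraries, 281, 380.2, 275 and 264 CPM at restricted day 3 and 207, 197 and 225 CPM at refed day 7. Restricted replicate 2 stood above the other 3, and the call (log2 fold change 0.59, SE 0.18, adjusted p = 0.022) was lost without it or without ad libitum replicate 3 or 4 (adjusted p = 0.053 to 0.11).

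The 6 SR genes that did not pass had log2 fold changes of −0.40 to 0.40 at day 3. The best studied of them, Srsf1, a splicing and mRNA export factor, was at 88.6, 82.6 and 59.3 CPM in the controls, 89.4, 61.6, 88.4 and 64.8 CPM at day 3 and 97.9, 90.9 and 91.7 CPM at day 7. The restricted libraries overlapped the controls, and all 3 refed libraries lay above both groups. Srsf2, the factor that marks nuclear speckles, was at 154, 113 and 90.9 CPM in the ad libitum libraries, 199, 130.1, 148 and 126 CPM at restricted day 3 and 190.4, 147 and 151 CPM at refed day 7. Its refed libraries lay inside the restricted range, and ad libitum replicate 2 did too (log2 fold change 0.34 at day 3 and 0.45 at day 7, both against ad libitum). Srsf2 was called higher at day 3 without ad libitum replicate 2 and with library totals alone (edgeR adjusted p = 0.042 and 0.033). On FPKM it was called higher too (limma adjusted p = 0.017 to 0.033). It overlaps Mettl23, which fell (−0.60), and Mfsd11, which rose (0.60), on the other strand. Srsf3, the smallest SR protein and one that mouse hepatocytes need to mature, was at 68.1, 71.2 and 41.5 CPM in the ad libitum libraries, 67.0, 67.8, 62.6 and 57.6 CPM at restricted day 3 and 59.3, 74.8 and 64.6 CPM at refed day 7, with ad libitum replicate 4 the lowest of all libraries.

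Srsf6 was at 148, 103 and 93.4 CPM in the ad libitum libraries, 201, 141, 142 and 122 CPM at restricted day 3 and 156, 113 and 124 CPM at refed day 7. Ad libitum replicate 2 again lay inside the restricted range (log2 fold change 0.40, SE 0.20, adjusted p = 0.14). Srsf6 was called higher by limma voom, and by edgeR without ad libitum replicate 2 (adjusted p = 0.035 and 0.029). It was also called higher with library totals alone (edgeR adjusted p = 0.023) and on FPKM (limma adjusted p = 0.021 to 0.041). Srsf9 was at 16.8, 18.8 and 21.4 CPM in the ad libitum libraries, 14.0, 10.9, 16.6 and 16.1 CPM at restricted day 3 and 17.6, 15.2 and 16.7 CPM at refed day 7, and it was the SR gene with the most negative value, with every restricted library just below every control (log2 fold change −0.40, SE 0.16, adjusted p = 0.07). It was called lower by limma voom, and by edgeR without ad libitum replicate 2 or with the replicate number as a block (adjusted p = 0.041, 0.049 and 0.042). Srsf10, a splicing repressor when dephosphorylated, was at 45.6, 36.8 and 33.2 CPM in the ad libitum libraries, 50.1, 49.9, 51.3 and 39.3 CPM at restricted day 3 and 40.0, 39.4 and 39.7 CPM at refed day 7, where restricted replicate 4 lay just below the refed libraries and the other 3 stood above them (log2 fold change 0.31, SE 0.14, adjusted p = 0.101). It was called higher by limma voom (adjusted p = 0.033), and by edgeR without ad libitum replicate 2 (0.025) or without restricted replicate 4 (0.044). Srsf10 was also called higher with library totals alone (edgeR adjusted p = 0.0080) and on FPKM (limma adjusted p = 0.0093 to 0.017). Srsf12 had 15 counts in all 10 libraries together.

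Summed over the family, SR genes took 793 to 1107 CPM in the controls, 1230 to 1562 CPM at restricted day 3 and 1021 to 1212 CPM at refed day 7. The number of SR genes called higher was 2 without ad libitum replicate 3 and 7 without ad libitum replicate 2, and 7 with library totals alone.

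**Figure D3:**
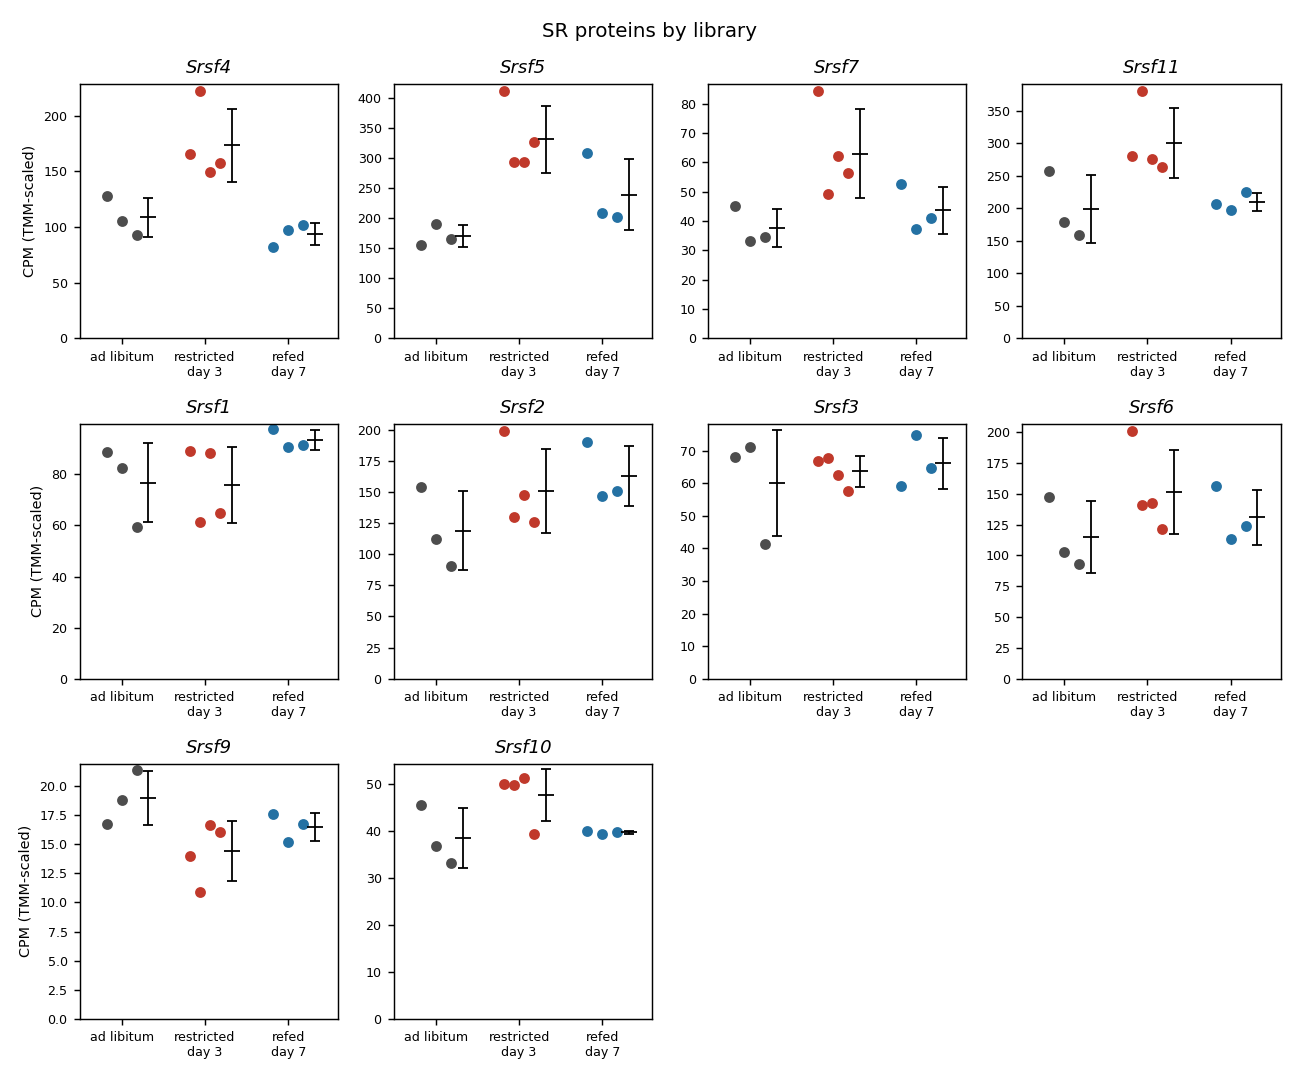
CPM of the 10 tested SR genes in each library (points), with group means and SDs (n = 3, 4 and 3), the 4 genes called higher at restricted day 3 first. Srsf5 is at 293 to 410 CPM at restricted day 3 against 155 to 191 CPM in the controls, and ad libitum replicate 2 is the highest control for 7 of the 10 genes.

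The hnRNP genes moved in both directions at restricted day 3, with 4 of 20 higher, 4 lower and 12 that did not pass. The share called was 40%, against 31.5% of all genes, which also split evenly, into 16% higher and 15.6% lower. The hnRNP median log2 fold change was 0.03. With TMM scaling the summed level of the 20 was nearly the same in all groups. It was 2008 to 2278 CPM in the controls, 2022 to 2337 CPM at day 3 and 2195 to 2347 CPM at day 7. Summed FPKM values, which are not TMM-scaled, were 677 to 754 in the controls, 814 to 1001 at day 3 and 766 to 797 at day 7. On that scale every restricted library was above every control. Hnrnph1, which binds G-rich runs near splice sites, rose most. Hnrnph1 was at 140.1, 96.9 and 106 CPM in the ad libitum libraries, 260.1, 194, 185 and 205 CPM at restricted day 3 and 162, 134 and 139 CPM at refed day 7. The restricted libraries were 1.85 times as high as the controls and stood above all other libraries (log2 fold change 0.88, SE 0.16, adjusted p = 0.0018). They were lower at refed day 7 (log2 fold change −0.54, SE 0.16, adjusted p = 0.029), a call that was lost without restricted replicate 1 or refed replicate 2 or 3 (adjusted p = 0.079 to 0.12).

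Hnrnpf, a close relative of Hnrnph1 and a binder of the same G-rich runs, went the other way. Hnrnph2, also of this subfamily, did not pass, at 45.2 to 56.8 CPM in the controls and 51.8 to 60.9 CPM at day 3. Hnrnpf was at 112, 154 and 129 CPM in the ad libitum libraries, 98.9, 86.2, 96.1 and 78.5 CPM at restricted day 3 and 115, 101 and 121 CPM at refed day 7. The restricted libraries were below every other library (log2 fold change −0.55, SE 0.14, adjusted p = 0.009). As a ratio of FPKM values, Hnrnph1 over Hnrnpf was 0.61 to 1.23 in the controls, 1.88 to 2.67 at day 3 and 1.08 to 1.33 at day 7. Hnrnpab, an hnRNP that also binds DNA, was at 143, 159 and 152 CPM in the ad libitum libraries, 108, 102, 121 and 115 CPM at restricted day 3 and 139, 149 and 149 CPM at refed day 7. It fell at day 3 (log2 fold change −0.44, SE 0.11, adjusted p = 0.01) and was higher again at day 7 (log2 fold change 0.38, SE 0.11, adjusted p = 0.027), the latter not with library totals alone or with any refed library left out. Hnrnpc, which coats uridine tracts of nascent transcripts, was at 87.9, 93.9 and 87.6 CPM in the ad libitum libraries, 69.5, 76.3, 65.5 and 58.6 CPM at restricted day 3 and 80.9, 74.8 and 75.5 CPM at refed day 7, and its restricted libraries lay below every control and overlapped the refed libraries through restricted replicate 2 (log2 fold change −0.41, SE 0.12, adjusted p = 0.016).

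The falls of Hnrnpf, Hnrnpab and Hnrnpc were not called with library totals alone (log2 fold changes of −0.22, −0.12 and −0.10) or on FPKM, nor without ad libitum replicate 3 (adjusted p = 0.055 to 0.074). Chosen after their values were seen, the other hnRNPs called at day 3 were Hnrnpl (0.55), its paralog Hnrnpll (0.51) and Hnrnpm (0.43), which were higher, and Hnrnpul1 (−0.40), which was lower. Hnrnpl, which binds CA repeats, was at 101, 95.1 and 89.8 CPM in the ad libitum libraries, 154, 161, 135 and 108 CPM at restricted day 3 and 98.6, 96.6 and 104 CPM at refed day 7, so the restricted libraries stood above the rest. Without ad libitum replicate 3, 2 hnRNPs were called higher and 0 lower, and without ad libitum replicate 4 the counts were 2 and 3. Scaling by library totals alone gave 8 higher and 0 lower. The shares of all genes called, in either direction, were 16.2%, 19.7% and 39.7% in the same order.

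Among the 12 that did not pass were the most abundant hnRNPs. Hnrnpa2b1, which sorts and splices RNA, was at 309.6 to 387 CPM in the controls, 268 to 335 CPM at day 3 and 394 to 431 CPM at day 7. All refed libraries were above all restricted ones, and the gene was called higher at day 7 than at day 3 (log2 fold change 0.43, adjusted p = 0.032), as were Hnrnpa3 (0.40), Hnrnpab and Hnrnpul1 (0.47). Called lower at day 7 than at day 3 were Hnrnph1, Hnrnpl (−0.48), Hnrnpll (−0.53), Hnrnph3 (−0.47) and Hnrnpm (−0.39). No hnRNP stayed higher without refed replicate 3, and none stayed lower without refed replicate 2 or without refed replicate 3.

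**Figure D4:**
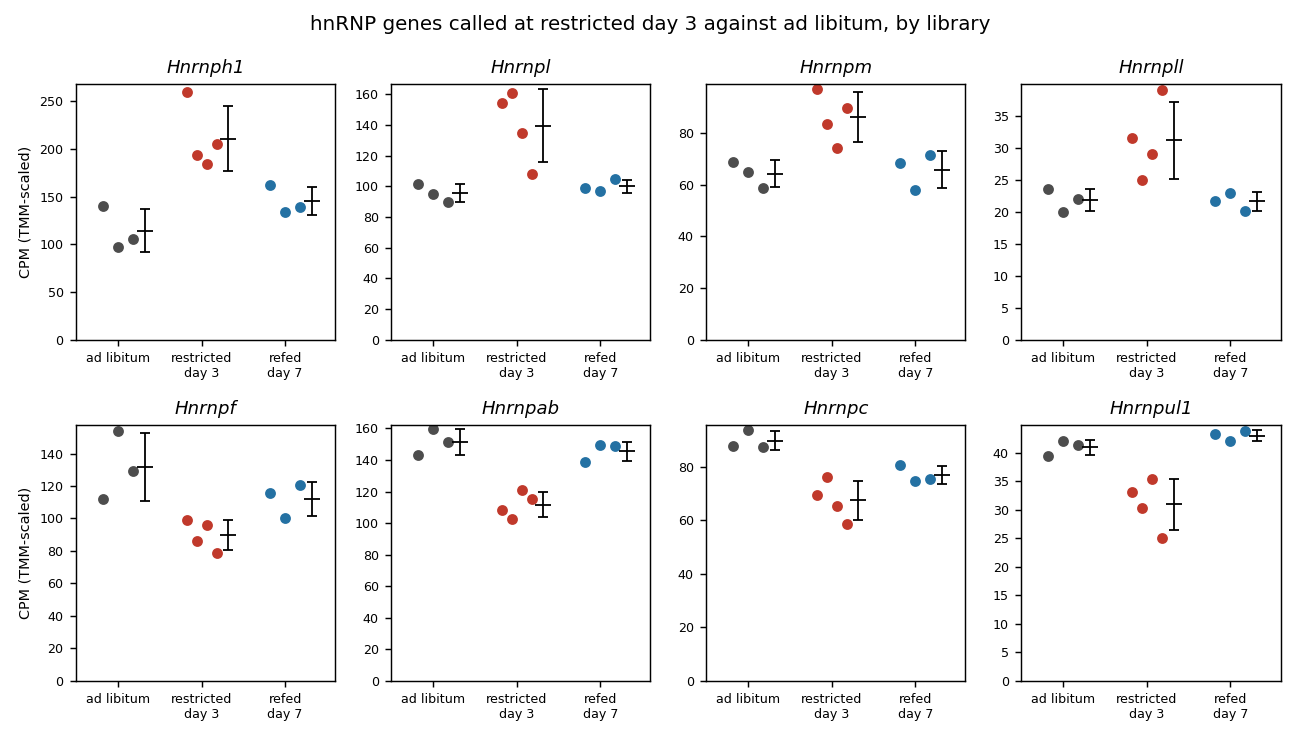
CPM of the 8 hnRNP genes called at restricted day 3 against ad libitum, in each library (points) with group means and SDs (n = 3, 4 and 3). Hnrnph1 is at 185 to 260 CPM at restricted day 3 against 96.9 to 140 CPM in the controls, and Hnrnpf at 78.5 to 98.9 against 112 to 154 CPM.

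Of the 33 other RBM genes tested, 7 rose at restricted day 3, 4 fell and 22 did not pass, a share of 33.3% called that was near the 31.5% of all genes. The rises included all 3 genes of the subfamily of Rbm5, Rbm6 and Rbm10. Rbm5, which controls the splicing of apoptosis genes, showed the largest change of any member above 5 CPM. Rbm5 was at 73.1, 47.1 and 52.3 CPM in the ad libitum libraries, 161, 115, 94.9 and 152 CPM at restricted day 3 and 85.9, 74.2 and 72.3 CPM at refed day 7. The restricted libraries were 2.27 times as high as the controls, and no restricted library overlapped another group (log2 fold change 1.19, SE 0.20, adjusted p = 0.0011). The refed libraries were lower than the restricted ones (log2 fold change −0.76, SE 0.20, adjusted p = 0.016) and, but for refed replicate 3 and ad libitum replicate 2, above the controls (log2 fold change 0.43, SE 0.21, adjusted p = 0.472). The refed fall was not called without refed replicate 2 or 3 (adjusted p = 0.064 and 0.060).

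Rbm6, a relative of Rbm5, was at 47.2, 32.2 and 34.8 CPM in the ad libitum libraries, 64.4, 56.6, 54.4 and 57.7 CPM at restricted day 3 and 33.3, 31.8 and 37.5 CPM at refed day 7. It rose by less (log2 fold change 0.61, SE 0.14, adjusted p = 0.006) and its refed libraries were near the control range, and it was called lower at day 7 than at day 3 (log2 fold change −0.77, SE 0.14, adjusted p = 0.0032). As a ratio of FPKM values, Rbm5 over Rbm6 was 1.21 to 1.23 in the controls, 1.44 to 2.00 at day 3 and 1.67 to 2.22 at day 7. Rbm10, the third gene of this subfamily, was at 43.0, 31.1 and 33.7 CPM in the ad libitum libraries, 64.4, 48.0, 43.1 and 63.7 CPM at restricted day 3 and 42.1, 33.8 and 42.7 CPM at refed day 7. Its lowest restricted library was level with ad libitum replicate 2, and the call (log2 fold change 0.61, SE 0.17, adjusted p = 0.016) was lost without ad libitum replicate 3 or 4 (adjusted p = 0.090 and 0.065).

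Rbm26, a zinc finger protein of a nuclear RNA decay complex, was at 49.7, 36.5 and 31.2 CPM in the ad libitum libraries, 63.1, 70.0, 55.9 and 58.1 CPM at restricted day 3 and 42.8, 49.9 and 43.4 CPM at refed day 7. All restricted libraries were above the others (log2 fold change 0.66, SE 0.16, adjusted p = 0.0067), and the call was kept under all 21 alternatives. Named after their values were seen, Rbm39, a relative of the splicing factor U2AF, was at 159.7 to 291 CPM in the controls and 269 to 411 CPM at day 3 (log2 fold change 0.54, SE 0.19, adjusted p = 0.049). Rbm25, which binds the first spliceosomal particle, was at 102 to 199.6 and 195 to 229 CPM (log2 fold change 0.52, SE 0.18, adjusted p = 0.046). For both, ad libitum replicate 2 overlapped the restricted libraries.

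The 4 falls were in Rbm47, Rbm42, Rbm45 and Rbm15, none of them called with library totals alone. Rbm47, a cofactor of apolipoprotein B mRNA editing in liver, was at 103, 101 and 95.0 CPM in the controls, 70.8, 61.4, 75.3 and 65.0 CPM at day 3 and 133, 78.4 and 82.6 CPM at day 7. It fell at day 3 (log2 fold change −0.55, SE 0.17, adjusted p = 0.023), and the refed group was spread by replicate 1, which was above every other library. The higher level at day 7 than at day 3 was called in 10 of the 21 alternatives and not, among others, without refed replicate 1, with limma voom or with library totals alone. Rbm42 was at 46.7, 37.8 and 37.4 CPM in the ad libitum libraries, 33.2, 31.9, 29.6 and 26.1 CPM at restricted day 3 and 30.1, 29.2 and 34.7 CPM at refed day 7. It fell at day 3 (log2 fold change −0.43, SE 0.13, adjusted p = 0.023), and its refed libraries were at the restricted level and below the controls (log2 fold change −0.38, adjusted p = 0.359, against ad libitum). Rbm47 and Rbm42 were not called with library totals alone (−0.23 and −0.12) or on FPKM. Rbm47 also lost its call without ad libitum replicate 3 or restricted replicate 2 or 4 (adjusted p = 0.050 to 0.075), and Rbm42 without ad libitum replicate 2 or restricted replicate 4 (0.083 and 0.058).

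Below 5 CPM, and chosen after their values were seen, Rbm45 and Rbm15 were called lower at day 3. Rbm45 was at 1.63, 3.36 and 3.24 CPM in the controls, 1.26, 1.42, 1.62 and 1.00 CPM at day 3 and 3.20, 2.73 and 3.48 CPM at day 7, with ad libitum replicate 2 near the restricted libraries (log2 fold change −1.04, SE 0.29, adjusted p = 0.016). Rbm15, part of the complex that writes m6A, was at 3.26 to 5.93 CPM in the controls and 1.83 to 3.08 CPM at day 3 (log2 fold change −0.81, SE 0.27, adjusted p = 0.035). Between day 3 and day 7, Rbm45 and, with the limits given above, Rbm47 were higher at day 7, and Rbm5, Rbm6 and Rbm3-ps were lower. The RBM counts at day 3 were 3 higher and 1 lower without ad libitum replicate 3, and 4 and 2 without ad libitum replicate 4. They were 5 and 1 without restricted replicate 4, and 14 higher and 0 lower with library totals alone. The shares of all genes called, in either direction, were 16.2%, 19.7%, 27.5% and 39.7% in the same order.

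The wider splicing machinery, described by lists of genes other than the members, did not move as one. The SR-related proteins and SR kinases had the largest share of rises among these lists. At restricted day 3, 16 of 26 were higher and none lower, against 16% and 15.6% of all genes. Their median log2 fold change was 0.49. Srrm1, a splicing coactivator of nuclear speckles, rose, with 40.1 to 50.7 CPM in the controls and 67.9 to 87.2 CPM at day 3 (log2 fold change 0.78, SE 0.13, adjusted p = 0.001). Scaf4, which binds the tail of RNA polymerase II, rose, with 37.1 to 47.2 CPM in the controls and 61.5 to 78.6 CPM at day 3 (log2 fold change 0.75, SE 0.13, adjusted p = 0.0011). Sfswap, the mammalian homolog of the fly splicing regulator suppressor of white apricot, rose, with 34.6 to 55.9 CPM in the controls and 71.0 to 101 CPM at day 3 (log2 fold change 0.95, SE 0.17, adjusted p = 0.0015). At day 7, 13 of the 26 were lower than at day 3, against 10.7% of all genes. The count higher at day 3 was 10 without ad libitum replicate 3 and 9 without ad libitum replicate 4. The shares of all genes called there, in either direction, were 16.2% and 19.7%. Without refed replicate 2 the count lower at day 7 was 6, against 11.1% of all genes called in either direction.

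Of 31 other RNA-binding splicing regulators 6 rose and 1 fell at day 3, with a median of −0.03. Tia1, a regulator of splicing and stress granules, rose, with 15.4 to 17.8 CPM in the controls and 30.5 to 34.1 CPM at day 3 (log2 fold change 0.98, SE 0.14, adjusted p = 0.0004), and the scaffold attachment factors Safb (0.88) and Safb2 (0.99) rose as well. Of 46 core spliceosome genes 9 rose and 5 fell, with a median of 0.02, and 3 rose without ad libitum replicate 3 or 4 and 5 without restricted replicate 1 or refed replicate 3. The helicase gene Dhx16 rose, with 39.9 to 59.6 CPM in the controls and 76.7 to 126 CPM at day 3 (log2 fold change 1.13, SE 0.19, adjusted p = 0.001) and Prpf38b rose (0.67), whereas Bud31 fell, with 60.2 to 61.9 CPM in the controls and 36.0 to 39.6 CPM at day 3 (log2 fold change −0.71, SE 0.10, adjusted p = 0.0005). The shares called were 22.6% of the splicing regulators and 30.4% of the core genes, the latter near the 31.5% of all genes. With library totals alone 14 of the 31 rose and 0 fell, and 21 of the 46 rose and 1 fell, both then above the 39.7% of all genes called with that scaling.

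Most genes of a heat shock list, which holds constitutive as well as inducible genes, fell where the cold-inducible pair rose. Of 16 heat shock genes none rose and 12 fell at restricted day 3, against 16% of all genes higher and 15.6% lower. The median log2 fold change of the 16 was −0.79, and 8 were higher at refed day 7 than at day 3, against 11.4% of all genes. The summed level of the 16 was 3210 to 3492 CPM in the controls, 1637 to 2204 CPM at day 3 and 2366 to 3355 CPM at day 7. Hsp90ab1, the constitutive cytosolic HSP90, fell, with 573 to 699 CPM in the controls and 303 to 382 CPM at day 3 (log2 fold change −0.93, SE 0.13, adjusted p = 0.00051). The inducible HSP90 gene Hsp90aa1 fell, with 131 to 195 CPM in the controls and 72.8 to 92.0 CPM at day 3 (−1.04) and the cochaperone gene Stip1 fell too, with 59.5 to 75.8 and 30.9 to 44.6 CPM (−0.80). With library totals alone 7 fell and 1 rose, and without refed replicate 3 the count higher at day 7 was 4. Many of these genes are also chaperones of protein folding in general, so the list is not specific to temperature.

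**Figure D5:**
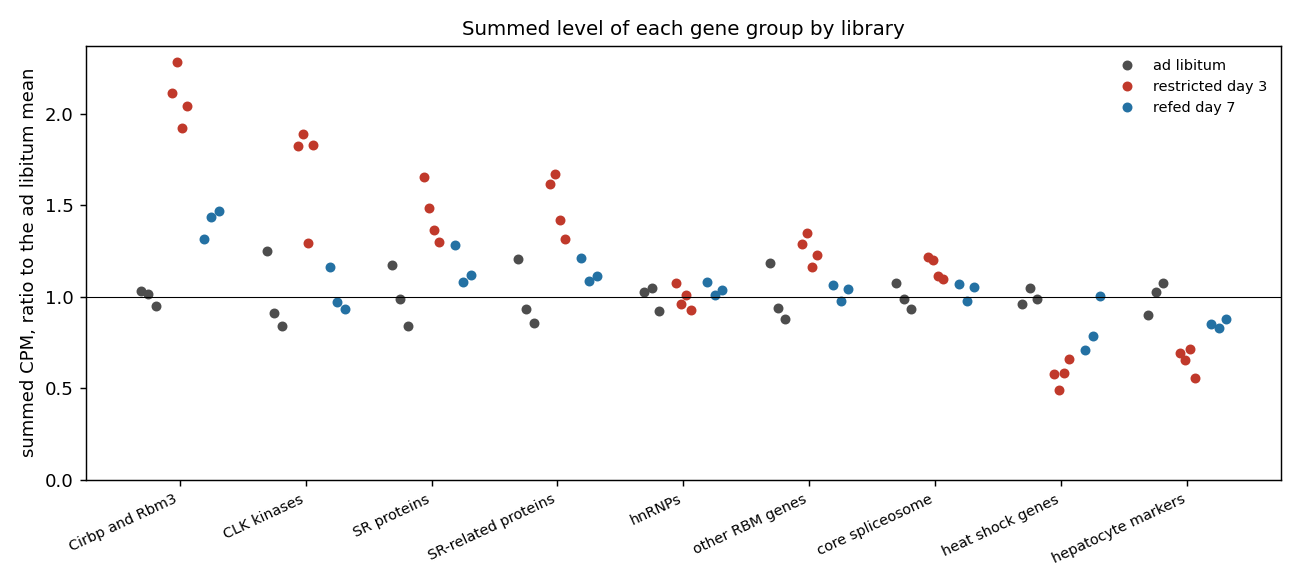
Summed CPM of each gene group in each library, as a ratio to the mean of the 3 ad libitum libraries. The cold-inducible pair is at 1.92 to 2.28 at restricted day 3 and 1.32 to 1.47 at refed day 7, the CLK kinases at 1.29 to 1.89 and 0.93 to 1.16, the hnRNPs at 0.93 to 1.08 in the restricted libraries, and the heat shock genes at 0.49 to 0.66.

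Genes whose transcripts are known to be partly held in the nucleus were looked at, and 7 of the 11 genes listed were in the table. Malat1, Neat1, Meg3 and Kcnq1ot1 of that list were not analysed here. With 1 value per gene, the totals do not separate nuclear from exported transcripts and cannot show how much nuclear RNA a library holds. Ogt (0.64) and the export factor gene Nxf1 (0.67), both with known detained introns, rose at day 3, and none fell. Their summed level was 535 to 695 CPM in the controls, 735 to 1001 CPM at day 3 and 684 to 844 CPM at day 7. Neither call was made without ad libitum replicate 3 or without ad libitum replicate 4, and 5 were made without ad libitum replicate 2. Their part in the members' rise was not tested.

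The tissue label was borne out by hepatocyte transcripts, with Alb at 29505 to 67104 CPM over all libraries. At restricted day 3, 5 of 7 hepatocyte markers fell (3 without ad libitum replicate 3, and 1 with library totals alone), and their sum was 51257 to 65849 CPM against 83019 to 99150 CPM in the controls and 76535 to 80906 CPM at day 7. Of 8 sinusoidal endothelial markers 3 rose (Stab1, Stab2 and Kdr). Over the 8 the median log2 fold change was 0.08, with 5 positive and the lowest at −0.61. Their sum was 197 to 211 CPM in the controls, 296 to 324 CPM at day 3 and 254 to 298 CPM at day 7. Of 7 macrophage markers 1 fell (Lyz2), with sums of 96.0 to 156, 95.8 to 173 and 115 to 165 CPM in the same order, and of 5 cholangiocyte markers 1 rose (Epcam), with sums of 57.1 to 97.0, 76.6 to 97.3 and 79.3 to 124 CPM. Of 6 stellate markers 1 fell at day 3 (Col1a1) and 4 were higher at day 7 than at day 3, with sums of 160 to 174, 127 to 164 and 204 to 234 CPM. Of 4 red cell markers 1 fell (Alas2), with sums of 321 to 440, 203 to 304 and 258 to 810 CPM. T cell, B cell and neutrophil markers each summed to 8.72 CPM or less in every library, with none called, and the neutrophil marker Ly6g was at 0 in every restricted and refed library. In bulk liver RNA, fewer cells of a type and less RNA per cell cannot be told apart, and the part of these markers in the members' changes was not tested.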

How the data were processed

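Poly(A)-selected, non-stranded libraries of mouse liver RNA (RNA integrity numbers of 6.6 to 8.5 per the labels) gave 2 deposited tables, read as 10 libraries in 3 groups. The deposited expected counts are estimated reads per gene, of which 10.9% were not whole, and they were rounded to whole numbers before testing. The deposited FPKM values are the authors' scaling by transcript length and depth. The aligners HISAT and Bowtie2 and the mouse assembly GRCm39 are listed per the submitters' processing notes, without roles or program versions, and the sources used here do not say which program counted the reads. The files were first planned as plain counts, and the same test was kept for the rounded expected counts.

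Genes were kept by filterByExpr, scaled by TMM and tested with edgeR 4.0.16 (robust quasi-likelihood test, all 10 libraries in the fit, R 4.3.3), with Benjamini-Hochberg adjustment over 12789 genes. SEs are the log2 fold change divided by the square root of F. Gene groups are described by counts and medians, with no test of the group. The alternatives were library totals alone, size factors by relative log expression, DESeq2 1.42.0, limma 3.58.1 (voom with sample weights, and log2(FPKM + 1) or log2(FPKM + 0.1)), other filters on low values, only the groups compared, a replicate block, and each library left out. The fit was tested on simulated data.

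Genes named in every case were the SR, CLK and cold-inducible genes, the 5 largest rises and the 5 largest falls at day 3 among called hnRNP and RBM genes averaging 5 CPM or more, and up to 3 genes of each companion list with the smallest p. The members, the lists and the tests were chosen with earlier results of these data known. Library totals of 13871533 to 15899479 counts set the precision of rare transcripts. Promoter windows came from RefSeq on GRCm38.p6, with no coordinates taken over to GRCm39. Malat1, Neat1, Meg3 and Kcnq1ot1 were not analysed here.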

Additional observations from a re-analysis of the deposited data

Results flagged for a closer look

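In 2 of 27 sets of 4 restricted libraries tested, 1 library lay farther from the others than Dixon's 95% critical value of 0.83 allows, and chance gives about 1 in 20. Srsf10 was at 39.3 CPM in restricted replicate 4 against 49.9 to 51.3 CPM in the other 3 (Dixon's ratio 0.882). Without that library edgeR called Srsf10 higher at day 3 (log2 fold change 0.39, adjusted p = 0.044). Srsf11 was at 380.2 CPM in restricted replicate 2 against 263.9 to 281 CPM in the other 3 (ratio 0.853), and its rise at day 3 was not called without that library.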

How the results depend on the processing

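No call among the named genes reversed its direction under any of the alternatives run. Of 32 calls among the named genes, 14 were kept under all 21 alternatives. Scaling moved the split into higher and lower calls, and leaving out 1 library moved the total most in both comparisons with day 3. At day 3 against ad libitum, 35 members were called higher with library totals alone, 34 with log2(FPKM + 1) or log2(FPKM + 0.1) and 33 with log2(FPKM + 1) and no filter, and 0 were called lower with each of these 4. From day 3 to day 7, 1 was called higher with each of the 4, and 25, 24, 24 and 21 lower in the same order. At day 7 against ad libitum DESeq2 and limma voom each called 1 member, which was higher. With 1 library left out, calls at day 3 numbered 13 to 34 (12 to 26 higher, 1 to 8 lower), those from day 3 to day 7 numbered 6 to 29 (2 to 8 higher, 4 to 21 lower), and those at day 7 against ad libitum were 0 each time. The lowest were 13 of 69 without ad libitum replicate 3, against 16.2% of all genes, and 6 of 69 without refed replicate 3, against 12.6%. Without refed replicate 2 there were 7 of 69, against 11.1% of all genes. With 1 library left out, the share of all genes called was 16.2% to 33.4% at day 3 and 11.1% to 24.1% from day 3 to day 7. The cause of these differences was not tested. The replicate numbers were not taken to pair the samples, since not every same-numbered pair correlated above 0.1, although 2 of the 3 pairs of day 7 with day 3 did. The correlations were −0.046 to 0.065 for day 3 with ad libitum, −0.040 and 0.014 for day 7 with ad libitum and 0.049 to 0.252 for day 7 with day 3. With the replicate number as a block, 29, 0 and 29 members were called in the 3 comparisons (20 higher and 9 lower at day 3, 7 higher and 22 lower from day 3 to day 7). Depth limits the members below 5 CPM, such as Rbm45 and Rbm15.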
